A study of Mus musculus with 12 samples.

Results

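Toll-like receptors and their adaptor were read in leukocyte preparations from prostates of TRAMP mice, which carry a transgene that gives rise to prostate cancer. The members are Tlr1, Tlr2, Tlr3, Tlr4, Tlr6, Tlr7, Tlr8, Tlr9, Tlr13 and Myd88. They were found as every array probe annotated to 1 of these symbols whose detection p was under 0.05 on at least 3 of the 12 arrays, a p that asks whether a probe is brighter than the negative controls of its array. Of 16 annotated probes 14 were kept, of 23054 kept among the 45281 on the array, and all 10 genes have at least 1 kept probe, of 11971 genes with one. The samples are CD45+ cells, CD45 being the surface protein that marks leukocytes, taken after adoptive T cell transfer (ACT) into TRAMP mice on the C57Bl/6 background. The groups are Tumor+Allo/Y (d28), which received the combined transfer and was killed on day 28 (samples 10, 11 and 12), Tumor+Allo/Y, with the same transfer at 1 week (samples 7, 8 and 9), Tumor at 1 week (samples 4, 5 and 6) and Allo/Y at 1 week (samples 1, 2 and 3). The submitters give 3 mice a group. Allo/Y is not spelled out in the labels, every group received a transfer, and no group without one is used here. What the transfers change among infiltrating blood-derived cells at the peak of infiltration, and what remains later, is the question the design states.

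Toll-like receptors are membrane proteins that recognise conserved molecules of microbes and of damaged cells. Some sit on the cell surface and bind lipids and proteins, and others sit in endosomes and bind nucleic acids. All members here except Tlr3 signal through the adaptor Myd88, which recruits kinases of the Irak family and leads to NF-kB and interferon regulatory factors, while Tlr3 uses the adaptor Ticam1. Macrophages, dendritic cells, neutrophils and B cells carry different sets of them.

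The promoters of 5 members that the results turn on are shown because their levels, as normalized, moved apart from one another. At 1 week, Tlr2, Tlr6, Tlr13 and Myd88 were higher by their brightest kept probe in Tumor+Allo/Y and Tumor than in Allo/Y. Tlr3, which lay near background, was not called. The other kept probe of Tlr6 was called in neither comparison, and that of Tlr13 not in Tumor. After the arrays were shifted to equal leukocyte signal, none of the 5 was called higher. Each run is the 250 bases before the annotated start, 5′ to 3′ on the gene's strand, from RefSeq on GRCm38.p6, with motif matches in capitals. Tlr2 is at chr3:83841609-83841858 on the minus strand, Tlr3 at chr8:45410381-45410630 on the minus strand, the downstream of 2 annotated Tlr6 starts at chr5:64959167-64959416 on the minus strand, Tlr13 at chrX:106143025-106143274 on the plus strand and Myd88 at chr9:119340019-119340268 on the minus strand.
Tlr2: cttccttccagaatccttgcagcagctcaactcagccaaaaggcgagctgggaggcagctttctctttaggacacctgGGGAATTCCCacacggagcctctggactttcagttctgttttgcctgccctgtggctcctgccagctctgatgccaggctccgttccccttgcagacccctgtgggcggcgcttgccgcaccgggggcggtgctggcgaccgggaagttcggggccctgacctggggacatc
Tlr3: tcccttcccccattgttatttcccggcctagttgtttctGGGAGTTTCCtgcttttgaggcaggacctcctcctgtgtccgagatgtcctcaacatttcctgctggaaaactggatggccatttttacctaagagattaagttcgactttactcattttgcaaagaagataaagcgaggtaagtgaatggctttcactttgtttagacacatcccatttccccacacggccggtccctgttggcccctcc
Tlr6: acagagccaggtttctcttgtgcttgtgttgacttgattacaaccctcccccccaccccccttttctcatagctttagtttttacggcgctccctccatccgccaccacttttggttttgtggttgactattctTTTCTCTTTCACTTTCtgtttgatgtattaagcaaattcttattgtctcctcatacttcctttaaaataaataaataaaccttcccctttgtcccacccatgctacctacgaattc
Tlr13: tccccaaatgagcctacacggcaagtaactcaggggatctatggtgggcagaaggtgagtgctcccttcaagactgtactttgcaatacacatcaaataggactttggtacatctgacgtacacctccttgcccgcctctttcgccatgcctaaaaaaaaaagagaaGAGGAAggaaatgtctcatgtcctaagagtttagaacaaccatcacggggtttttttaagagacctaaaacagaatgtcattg
Myd88: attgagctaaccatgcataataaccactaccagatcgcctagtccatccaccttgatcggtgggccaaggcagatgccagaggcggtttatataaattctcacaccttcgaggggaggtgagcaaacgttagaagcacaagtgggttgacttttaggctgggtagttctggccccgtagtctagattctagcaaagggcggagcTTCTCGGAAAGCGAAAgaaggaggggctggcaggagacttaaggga

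Both strands were searched for 4 motifs, in which N is any base. The core of the interferon-stimulated response element was spelled GAAA, NN and GAAA joined, the site of STAT factors TTCNNNGAA, the NF-kB site GGG, NN, TT, N and CC joined, and the core of the PU.1 site GAGGAA. The capitals in Tlr2 and Tlr3 mark NF-kB letters, 172 and 211 bases before the start. Those in Tlr6 mark 2 overlapping matches of the interferon element, 116 and 110 bases before the start, and those in Tlr13 mark the PU.1 core, 83 bases before it. The window of the upstream Tlr6 start, not shown, held STAT matches and no interferon element. In Myd88 the interferon element 40 bases before the start overlaps a STAT site 46 bases before it. RefSeq's promoter table held windows for 8 of the 10 members, 10 windows in all, and has no entry for Tlr4 and Tlr7. Windows run from 250 bases before to 50 after a start. The interferon element was in 2 of the 10 member windows, against 3.44% of all 32851 windows, and the STAT site in 4, against 8.3%. The NF-kB site was in 2, against 4.79%, and the PU.1 core in 4, against 28.3%. A match is a description of these letters and not a bound site.

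All values below are log2 signals after background correction and quantile normalization, with an offset of 16 that compresses dim signals, and an adjusted p is from limma over all 23054 kept probes, called when under 0.05. Between 18981 and 21718 probes (41.9% to 48%) stood above background per array, and the number of arrays limits the precision. Set against its markers, the CD45+ label held less well in Allo/Y: the mean log2 level of the pan-leukocyte list (Ptprc, which encodes CD45, and others) lay between 10.85 and 11.16 in Tumor+Allo/Y (d28), 10.72 and 11.22 in Tumor+Allo/Y, 10.66 and 11.25 in Tumor, and 8.66 and 8.97 in Allo/Y. The list of prostate and seminal vesicle epithelium ran the other way, at 10.76 to 11.27, 9.55 to 10.87, 8.47 to 10.72, and 11.7 to 12.37 in the same groups. Tumor sample 6 stood apart from its group: it correlated over all kept probes at 0.905 and 0.93 with Tumor samples 4 and 5 and at 0.975 with Tumor+Allo/Y sample 9. It also had the highest neutrophil score of the 12 arrays, 9.3, with Tumor+Allo/Y samples 9 and 7 next at 9.21 and 8.75. In RNA of a mixed cell population, fewer cells of a type and less RNA per cell cannot be told apart.

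**Figure D1:**
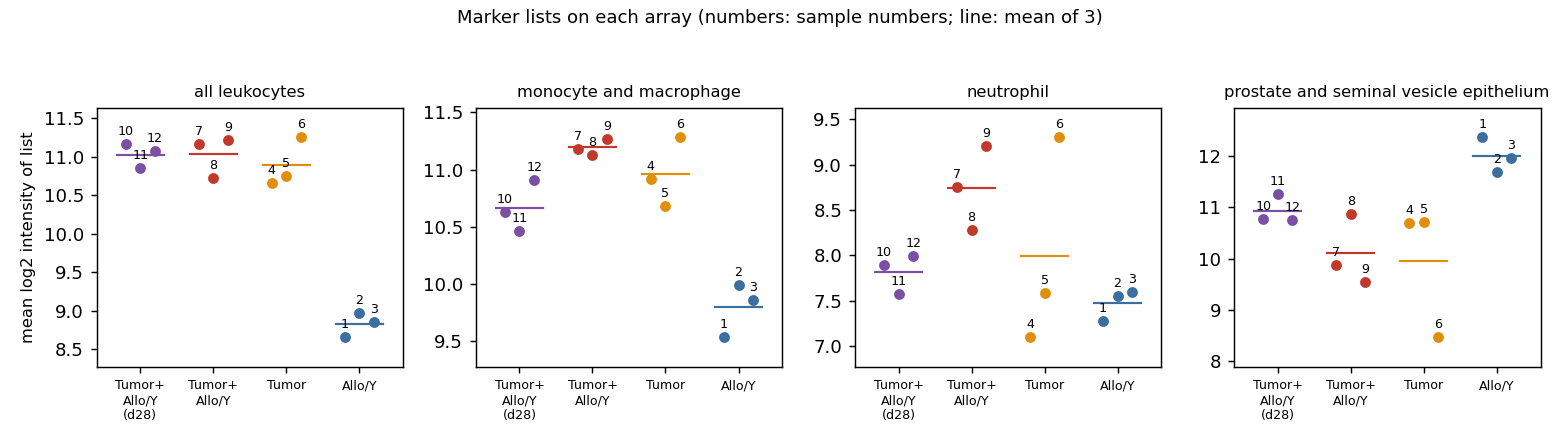
Mean log2 signal of marker lists (all leukocytes, monocytes and macrophages, neutrophils, epithelium) on each of the 12 arrays, 1 point an array, by group. The 3 Allo/Y arrays are lowest for leukocytes, at 8.66 to 8.97, and Tumor sample 6 is highest for neutrophils, at 9.3.

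Most receptors were brighter 1 week after Tumor+Allo/Y or Tumor transfer than after Allo/Y transfer, with Tlr13, Tlr6 and Tlr1 furthest apart, while Tlr3 and Tlr4 were not called. When every array was shifted to equal leukocyte signal, which also moved most probes of the array lower, 11 of the 14 probes in Tumor+Allo/Y, and 12 in Tumor, lay below Allo/Y, but Tlr13 probe a and Tlr6 probe a stayed above it in both, as did Tlr1 in Tumor+Allo/Y. None of these was called higher after it. Tlr6 probe b was called lower in both (-0.97 in Tumor+Allo/Y and -0.87 in Tumor), and Tlr13 probe b, at -0.08 and -0.7, was not called. Without that shift, in Tumor+Allo/Y against Allo/Y 10 of 14 member probes were called, all higher, where 44.5% of all kept probes were called and 20.8% were called higher. The median member difference was 1.44, beside 0.02 over all kept probes. Samples did not overlap between the groups, Tumor+Allo/Y higher, for 11 of the 14 probes, against 29% of all kept probes. The counts of 10 and 11 and the member median include the Tlr9 probe. It stood above background only in Tumor+Allo/Y and Tumor and so passed the filter through the groups where it is high. Of the other 13 probes 9 were called. In Tumor against Allo/Y 9 of 14 were called, all higher, where 36.9% of all probes were called and 17.8% were called higher, with a median of 1.27 beside 0.03. Here too 11 of the 14 did not overlap, against 27.1% of all. These 11 and the median include Tlr9 as well, and 8 of the 13 probes other than Tlr9 were called. The 3 Allo/Y arrays enter every comparison with Allo/Y, so these comparisons are not independent of each other. A limma F test over all 4 groups called 11 of the 14 probes, against 42.9% of all probes, and the 3 that missed were Tlr3 (adjusted p = 0.0567), Tlr4 probe b (0.144) and Tlr6 probe b (0.139). Without Allo/Y sample 1 that test called 4 of the 14, and 6165 of all 23054 kept probes, so the member count then lay near the share of all probes.

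**Figure D2:**
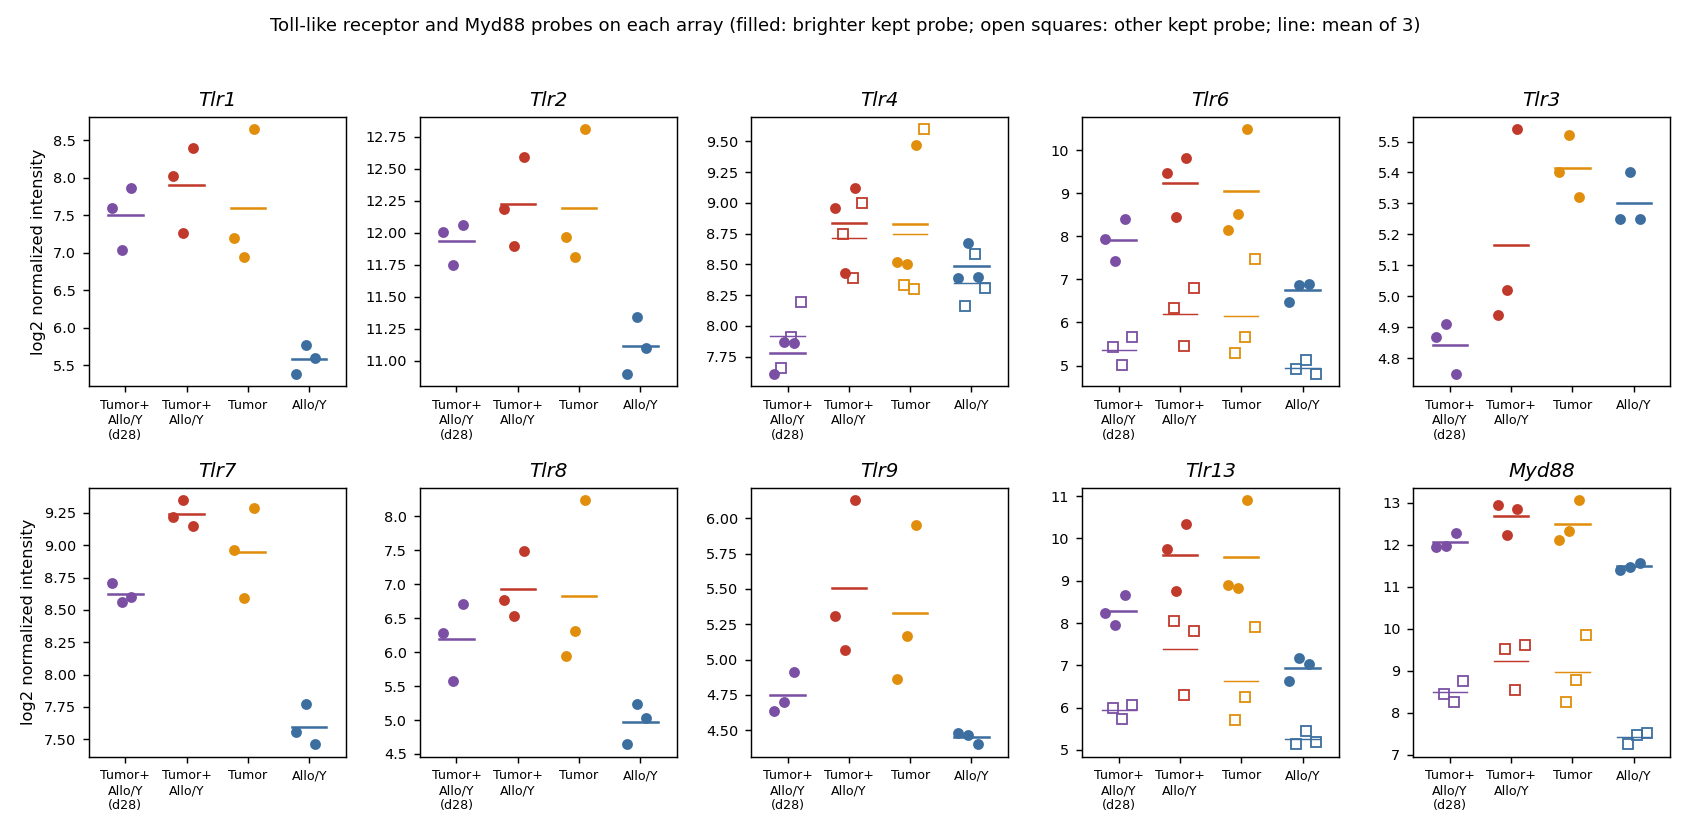
Log2 signal of the 14 kept member probes on each array, with a line at the group mean and an axis of its own in each panel. Filled points are the only kept probe or probe a, and open squares are probe b. The Allo/Y points lie lowest for most receptors but not for Tlr3 and Tlr4, an order that holds for the plotted signals and not for most of these probes after a shift to equal leukocyte signal (Tlr13 probe a and Tlr6 probe a keep it at 1 week, without a call), and Tumor sample 6 is the highest array for 10 of the 14 probes.

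Among the surface receptors, Tlr2 pairs with Tlr1 or Tlr6 and senses bacterial lipoproteins. Tlr1 (probe ILMN_1236908) read 7.6, 7.04 and 7.86 in Tumor+Allo/Y (d28), 8.03, 7.27 and 8.4 in Tumor+Allo/Y, 7.2, 6.95 and 8.65 in Tumor, and 5.39, 5.77 and 5.6 in Allo/Y. No Allo/Y sample reached any other sample. Tumor+Allo/Y exceeded Allo/Y by 2.31 ± 0.43 (SE; 4.95-fold, adjusted p = 0.0019), Tumor exceeded it by 2.01 (adjusted p = 0.00544), and day 28 exceeded it by 1.91 (adjusted p = 0.00496).

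Tlr2 (ILMN_2733733) read 12.01, 11.75 and 12.06 in Tumor+Allo/Y (d28), 12.19, 11.9 and 12.59 in Tumor+Allo/Y, 11.97, 11.81 and 12.81 in Tumor, and 10.9, 11.34 and 11.1 in Allo/Y. The difference from Allo/Y was 1.11 ± 0.26 in Tumor+Allo/Y (adjusted p = 0.007) and 1.08 in Tumor (adjusted p = 0.0107), and again no Allo/Y sample overlapped. At day 28 it was 0.82 (adjusted p = 0.029), a call lost without Allo/Y sample 1 (adjusted p = 0.0991) or 3 (0.0719) or day 28 sample 10 (0.0796) or 12 (0.0846).

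Tlr6 has 2 kept probes, called here a (ILMN_3162337) and b (ILMN_1254605). Probe a read 7.93, 7.42 and 8.4 in Tumor+Allo/Y (d28), 9.48, 8.44 and 9.81 in Tumor+Allo/Y, 8.15, 8.52 and 10.49 in Tumor, and 6.47, 6.87 and 6.89 in Allo/Y. It was 2.5 ± 0.55 higher in Tumor+Allo/Y (5.66-fold, adjusted p = 0.00491) and 2.31 higher in Tumor (adjusted p = 0.00976), with no overlap, and differed by 1.17 at day 28 (adjusted p = 0.113). The group SD was 1.26 in Tumor, where sample 6 lay far above samples 4 and 5. Probe b read 5.42, 5.02 and 5.67 at day 28, 6.33, 5.45 and 6.81 in Tumor+Allo/Y, 5.3, 5.66 and 7.48 in Tumor, and 4.91, 5.14 and 4.81 in Allo/Y, where it stood above background on 1 array. It differed by 1.24 in Tumor+Allo/Y (adjusted p = 0.0667) and by 1.19 in Tumor (adjusted p = 0.0855). Without Tumor sample 6 the Tumor+Allo/Y difference of probe b was called (adjusted p = 0.00621), as it was without Tumor sample 4 (0.0472) or Tumor+Allo/Y sample 8 (0.0288), and the Tumor difference was called without sample 4 (1.62, adjusted p = 0.0292). Tlr1 and Tlr6 are close paralogs, and cross-hybridisation between them was not tested.

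Tlr4, the receptor for bacterial lipopolysaccharide, was the surface receptor that did not separate the 1 week groups. Its probe a (ILMN_2752966) read 7.61, 7.87 and 7.86 in Tumor+Allo/Y (d28), 8.96, 8.43 and 9.12 in Tumor+Allo/Y, 8.52, 8.5 and 9.47 in Tumor, and 8.39, 8.67 and 8.4 in Allo/Y. It differed from Allo/Y by 0.35 ± 0.26 in Tumor+Allo/Y (adjusted p = 0.301) and 0.34 in Tumor (adjusted p = 0.326), with overlapping samples. Day 28 was the lowest group, every one of its samples below every other sample, at -0.71 against Allo/Y (adjusted p = 0.052) and -1.06 against Tumor+Allo/Y at 1 week (adjusted p = 0.0629). Probe b (ILMN_2684234) read 7.66, 7.91 and 8.19 at day 28, 8.75, 8.39 and 9 in Tumor+Allo/Y, 8.33, 8.3 and 9.6 in Tumor, and 8.16, 8.58 and 8.31 in Allo/Y. It differed from Allo/Y by 0.36 in Tumor+Allo/Y (adjusted p = 0.383) and 0.39 in Tumor (adjusted p = 0.359). Its day 28 differences were -0.43 against Allo/Y (adjusted p = 0.311) and -0.79 against Tumor+Allo/Y (adjusted p = 0.212). The day 28 difference of probe a from Allo/Y was called without Tumor sample 4 (adjusted p = 0.0493), Tumor sample 6 (0.00843) or Tumor+Allo/Y sample 8 (0.0385). A further Tlr4 probe (ILMN_2690004) was above background on 0 arrays and was not kept.

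Among the endosomal receptors, Tlr7, which senses single-stranded RNA, had the smallest adjusted p of any member. It (ILMN_1245354) read 8.71, 8.56 and 8.6 in Tumor+Allo/Y (d28), 9.22, 9.35 and 9.15 in Tumor+Allo/Y, 8.96, 8.59 and 9.29 in Tumor, and 7.56, 7.77 and 7.46 in Allo/Y. It was 1.64 ± 0.17 higher in Tumor+Allo/Y (3.12-fold, adjusted p = 0.000111), 1.35 in Tumor (adjusted p = 0.000418) and 1.03 at day 28 (adjusted p = 0.00104), each time with no overlap with Allo/Y. Its SD within Tumor+Allo/Y was 0.1, and its 3 highest arrays were not the set that was highest for most members.

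Tlr13, a mouse receptor for bacterial ribosomal RNA, was furthest from Allo/Y. Probe a (ILMN_2735961) read 8.23, 7.95 and 8.67 in Tumor+Allo/Y (d28), 9.74, 8.76 and 10.33 in Tumor+Allo/Y, 8.91, 8.83 and 10.91 in Tumor, and 6.62, 7.17 and 7.04 in Allo/Y. The difference from Allo/Y was 2.67 ± 0.54 in Tumor+Allo/Y (6.35-fold, adjusted p = 0.00295), 2.61 in Tumor (adjusted p = 0.00458) and 1.34 at day 28 (adjusted p = 0.0657). Every sample of the other groups lay above every Allo/Y sample. Probe b (ILMN_2894587) read 6, 5.73 and 6.07 at day 28, 8.04, 6.3 and 7.82 in Tumor+Allo/Y, 5.71, 6.25 and 7.91 in Tumor, and 5.13, 5.46 and 5.2 in Allo/Y, with differences of 2.13 ± 0.54 (adjusted p = 0.00954), 1.37 in Tumor (adjusted p = 0.0692) and 0.67 at day 28 (adjusted p = 0.342). For probe b the Tumor difference was called without Tumor sample 4 (1.82, adjusted p = 0.0234) or Tumor+Allo/Y sample 8 (1.37, adjusted p = 0.0348), and the day 28 difference of probe a was called without Tumor sample 6 (adjusted p = 0.00836) or Tumor+Allo/Y sample 8 (0.0484).

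Tlr8, an endosomal receptor that in humans senses single-stranded RNA, (ILMN_2460572) read 6.28, 5.57 and 6.71 in Tumor+Allo/Y (d28), 6.76, 6.53 and 7.49 in Tumor+Allo/Y, 5.94, 6.31 and 8.24 in Tumor, and 4.64, 5.23 and 5.03 in Allo/Y, where it stood above background on 2 arrays. It was 1.96 ± 0.53 higher in Tumor+Allo/Y (adjusted p = 0.0131) and 1.86 higher in Tumor (adjusted p = 0.0206), and differed by 1.22 at day 28 (adjusted p = 0.0887). The Tumor+Allo/Y call was lost without its sample 9 (1.68, adjusted p = 0.0527) and the Tumor call without Allo/Y sample 1 (1.7, adjusted p = 0.0721) or 3 (1.89, adjusted p = 0.0521). The day 28 difference was called without Tumor sample 6 (adjusted p = 0.00914).

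Tlr9, the receptor for unmethylated CpG DNA, was near background. Its kept probe (ILMN_2849322) read 4.64, 4.7 and 4.91 in Tumor+Allo/Y (d28), 5.31, 5.07 and 6.13 in Tumor+Allo/Y, 4.86, 5.17 and 5.95 in Tumor, and 4.48, 4.47 and 4.4 in Allo/Y, and stood above background on 0, 3, 2 and 0 arrays of these groups. It passed the filter on dim probes only through Tumor+Allo/Y and Tumor, so a difference from Allo/Y was built into its selection. Tumor+Allo/Y was at least 1.43-fold higher than Allo/Y (adjusted p = 0.016) and Tumor at least 1.26-fold (adjusted p = 0.041). Such a bound sets the mean of the bright group against the dimmest signal that stood above background in the dim group. The adjusted p printed beside a bound is that of the limma difference, not of the bound. The Tumor+Allo/Y call was lost without its sample 9 (0.74, adjusted p = 0.0588), and the Tumor call was lost without Tumor sample 6 (0.57, adjusted p = 0.133) and without Tumor sample 5 (0.96, adjusted p = 0.06), any Allo/Y sample (adjusted p between 0.0867 and 0.101), any day 28 sample (0.0523 to 0.0558) or Tumor+Allo/Y sample 7 (0.0508). A second Tlr9 probe (ILMN_2454579) was not kept.

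Tlr3, the receptor for double-stranded RNA and the member that does not use Myd88, (ILMN_2697002) read 4.87, 4.91 and 4.75 in Tumor+Allo/Y (d28), 4.94, 5.02 and 5.54 in Tumor+Allo/Y, 5.4, 5.52 and 5.32 in Tumor, and 5.25, 5.4 and 5.25 in Allo/Y. It was above background on 0, 2, 3 and 3 arrays, so it passed the filter through the 1 week groups alone. The 1 week differences from Allo/Y were -0.13 ± 0.16 in Tumor+Allo/Y (adjusted p = 0.529) and 0.11 in Tumor (adjusted p = 0.616), with overlapping samples. Allo/Y was at least 1.18-fold higher than day 28 (adjusted p = 0.0421), a call lost without any 1 Allo/Y sample (adjusted p between 0.0807 and 0.122), without any 1 day 28 sample (0.0692 to 0.117), or without Tumor sample 4 (0.0516) or 5 (0.0531).

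Myd88, the shared adaptor, was higher with both 1 week transfers that have a Tumor component. Probe a (ILMN_2971767) read 11.94, 11.98 and 12.27 in Tumor+Allo/Y (d28), 12.94, 12.23 and 12.86 in Tumor+Allo/Y, 12.11, 12.33 and 13.07 in Tumor, and 11.41, 11.48 and 11.56 in Allo/Y. It exceeded Allo/Y by 1.2 ± 0.25 in Tumor+Allo/Y (2.29-fold, adjusted p = 0.00393) and 1.02 in Tumor (adjusted p = 0.0114), with no overlap, and differed by 0.58 at day 28 (adjusted p = 0.0884; 0.0265 without Tumor sample 6). Probe b (ILMN_2774646) read 8.44, 8.25 and 8.76 at day 28, 9.52, 8.54 and 9.6 in Tumor+Allo/Y, 8.26, 8.77 and 9.86 in Tumor, and 7.24, 7.47 and 7.52 in Allo/Y. Its differences were 1.8 ± 0.38 in Tumor+Allo/Y (adjusted p = 0.004), 1.55 in Tumor (adjusted p = 0.0112) and 1.07 at day 28 (adjusted p = 0.0445). The day 28 call of probe b was lost without any 1 Allo/Y sample (adjusted p between 0.0821 and 0.121), any 1 day 28 sample (0.0623 to 0.132), Tumor sample 5 (0.0568) or Tumor+Allo/Y sample 7 (0.0532).

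Day 28 after the combined transfer lay between the 1 week transfers and Allo/Y for most members before any shift to a marker list. After the leukocyte shift all 14 probes lay below Allo/Y at day 28 (median -1.45, beside -2.19 over all probes). All 14 lay below Tumor+Allo/Y at 1 week both with that shift (median -0.74, beside 0) and without it. The leukocyte list differed by -0.01 between these 2 groups, so the shift moved this comparison little. Against Allo/Y 4 probes were called higher (Tlr1, Tlr2, Tlr7 and Myd88 probe b) and 1 lower (Tlr3), where 41.7% of all kept probes were called, 19.9% higher and 21.8% lower, and the median member difference was 0.75 beside 0.01. That count was 2 without Allo/Y sample 1, where 7180 of all 23054 kept probes were called. It was 10 (8 higher, 2 lower) without Tumor sample 6, where 11286 were called. The comparison differs in both transfer and time. Tlr3 passed the filter through 1 week arrays alone, so its lower day 28 value was built into its selection. Against Tumor+Allo/Y at 1 week 0 of 14 were called (limma; 8 at an unadjusted p under 0.05), where 2.65% of all probes were called, and the 14 differences all pointed down with a median of -0.75 beside 0, and of -0.22 beside 0.53 after the arrays were shifted to equal macrophage signal. For 8 of the 14 every day 28 sample lay below every 1 week sample, against 9.71% of all probes. Tlr3 and Tlr9 are among the 8. Both passed the filter through 1 week arrays alone, so a lower day 28 value was built into their selection. The 14 differences and their median include them as well. The differences were -0.61 for Tlr7 (adjusted p = 0.0903), -1.33 for Tlr6 probe a (adjusted p = 0.221), and -1.32 and -1.45 for the Tlr13 probes a and b (adjusted p = 0.209 and 0.178). Without Tumor sample 6, which is in neither group but enters the shared estimate of the spread, 6 were called lower: both Tlr4 probes (adjusted p = 0.0133 and 0.0406), Tlr6 probe a (0.0477), Tlr7 (0.0333) and both Tlr13 probes (0.0479 and 0.048). Of all 23054 kept probes 1529 were then called in either direction, against 610 with all arrays. The neutrophil score differed in the same direction, at 7.57 to 7.99 at day 28 and 8.28 to 9.21 at 1 week, and the macrophage score at 10.46 to 10.91 and 11.13 to 11.27. The T cell score was higher at day 28, at 11.56 to 12.21 against 9.7 to 10.89, and the epithelium score lay at 10.76 to 11.27 against 9.55 to 10.87. The part of neutrophils, T cells and epithelium in these differences was not tested. Against Tumor at 1 week 0 of 14 probes were called at day 28 (limma; 4 at an unadjusted p under 0.05), where 2.99% of all probes were, with a median of -0.61 that was -0.15 without Tumor sample 6 and -0.93 without Tumor sample 4.

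**Figure D3:**
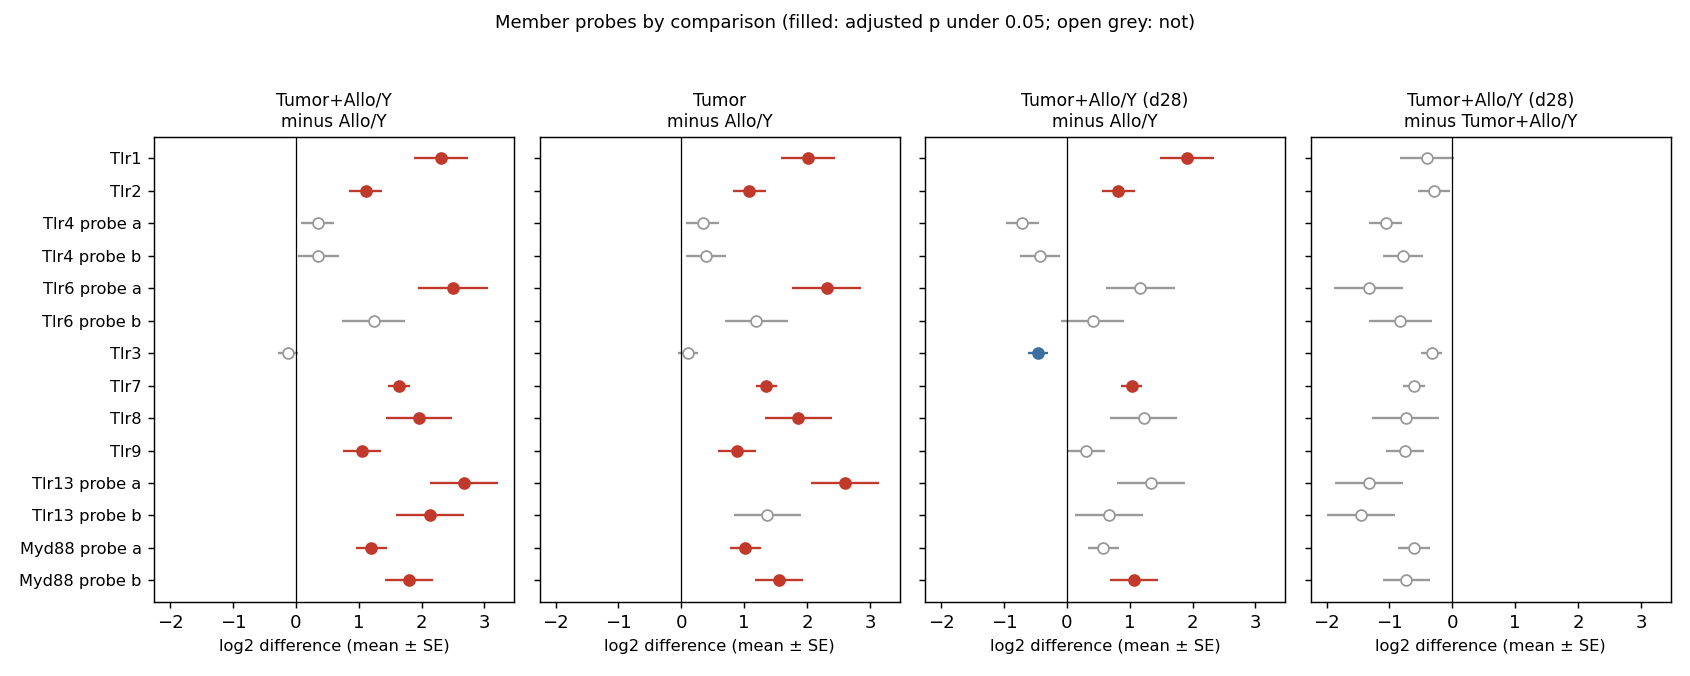
Log2 difference of each kept member probe in 4 comparisons (panels) with its standard error, filled where the adjusted p is under 0.05. Tumor+Allo/Y and Tumor against Allo/Y give 10 and 9 filled points, all higher, of which only Tlr1, Tlr6 probe a and Tlr13 probe a (the last pair alone in Tumor) stay above 0 after the leukocyte shift, none of them called, and day 28 against Tumor+Allo/Y gives 0.

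Adding Allo/Y to the Tumor transfer did not give a called difference in any member. Tumor+Allo/Y and Tumor at 1 week differed by -0.24 to 0.76, with 0 of 14 called by limma (adjusted p = 1 each, and 0 at an unadjusted p under 0.05), where 0.00434% of all kept probes were called. With Tumor sample 6 and Tumor+Allo/Y sample 8 left out together, 8 of 14 were called higher in Tumor+Allo/Y, with a median of 0.85. Of all 23054 kept probes 1713 were then called higher and 2304 lower. The 0 thus rests on which arrays are included, but that omission was not neutral. For most members sample 6 was the highest Tumor array and sample 8 the lowest Tumor+Allo/Y array, so leaving both out favours a higher Tumor+Allo/Y. Leaving out any 1 array gave 0 calls. Before any shift to a marker list, the group means ran in the order Tumor+Allo/Y, Tumor, day 28 and Allo/Y for 11 of the 14 probes. Of the 42 steps between neighbours in these orders 4 were called, the step from day 28 to Allo/Y in Tlr1, Tlr2, Tlr7 and Myd88 probe b, and 38 were not. Among those 38, samples did not overlap for 9 and the unadjusted p was under 0.05 for 5: the steps between day 28 and Allo/Y in Tlr4 probe a, Tlr8, Tlr13 probe a and Myd88 probe a, and that between day 28 and Tumor in Tlr13 probe a (unadjusted p = 0.0381, adjusted p = 0.21).

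The same 3 arrays, Tumor sample 6 and Tumor+Allo/Y samples 7 and 9, were the highest for 12 of the 14 probes, all except Tlr3 and Tlr7. They are also the 3 arrays with the highest neutrophil scores, the highest macrophage scores (11.28, 11.18 and 11.27) and the lowest epithelium scores (8.47, 9.88 and 9.55), in the order just named, and the part of these in the pattern was not tested. The neutrophil list has 8 kept genes of 12, with Mmp8 and Elane never above background and Ngp above it only in Tumor+Allo/Y. With the 3 arrays left out, the median member difference in Tumor+Allo/Y against Allo/Y was 0.91, beside -0.04 over all kept probes. In Tumor against Allo/Y it was 0.76, beside -0.01. That fit has 1 Tumor+Allo/Y array left, assumed to vary like the other groups, so only differences are given here. In Tumor against Allo/Y, Tlr13 probe a then differed by 1.93, against 2.61 with all arrays, Tlr6 probe a by 1.59, Tlr1 by 1.48 and Tlr7 by 1.18. Day 28 against Allo/Y holds none of the 3 arrays, so its member median of 0.75, beside 0.01 over all kept probes, could not change. In day 28 against Tumor+Allo/Y the member median was -0.33, against -0.75 with all arrays, beside 0.01 over all kept probes.

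Every comparison with Allo/Y sets arrays of unequal leukocyte signal against each other, so the members were read again relative to marker lists. The mean of the leukocyte list was 2.21 higher in Tumor+Allo/Y than in Allo/Y, 2.07 higher in Tumor and 2.2 higher at day 28. After the arrays were shifted to an equal leukocyte mean, 0 member probes were higher and 8 were lower in Tumor+Allo/Y, 0 and 8 in Tumor, and 0 and 12 at day 28, with medians of -0.77, -0.79 and -1.45. The shift moves every probe of an array alike: of all kept probes 93.4% were called lower and 0.824% higher in Tumor+Allo/Y, 93.8% and 0.638% in Tumor, and 93.6% and 0.885% at day 28, with medians of -2.19, -2.04 and -2.19. The sign of the members is thus set in part by the shift. The distance of their medians from those of all probes cannot change under it, so that distance is not a separate result. Against Allo/Y, Tlr13 probe a then differed by 0.46 in Tumor+Allo/Y and by 0.54 in Tumor, Tlr6 probe a by 0.29 and 0.24, and Tlr1 by 0.1 and -0.06, none of them called.

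Scaled to the monocyte and macrophage list, 3 probes were called higher against Allo/Y in each of the 1 week comparisons: Tlr1 (0.91 in Tumor+Allo/Y and 0.84 in Tumor), Tlr6 probe a (1.1 and 1.14) and Tlr13 probe a (1.27 and 1.44). Their b probes were not called, Tlr6 probe b at -0.16 and 0.03 and Tlr13 probe b at 0.73 and 0.2. Tlr3 and both Tlr4 probes were called lower. Of all kept probes 3.04% were called higher and 83.4% lower in Tumor+Allo/Y after this shift, and 3.31% and 79.7% in Tumor. At day 28 Tlr1 was called higher (1.04), and Tlr3 and both Tlr4 probes lower, where 5.37% of all probes were higher and 63.2% lower. The member medians were 0.04, 0.1 and -0.12, beside all-probe medians of -1.38, -1.14 and -0.86. Tlr2, Tlr9 and Myd88 probe a, called higher before the shift in both 1 week comparisons, lay at -0.09 to -0.34 after it and were not called. With the epithelium score as a covariate, 3 member probes were called in Tumor+Allo/Y against Allo/Y, Tlr1 (0.88), Tlr7 (1.34) and Tlr13 probe a (0.83), and 1 in Tumor, Tlr7 (1.03), where 19.7% and 10.6% of all kept probes were called, so these counts lie near the share of all probes.

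**Figure D4:**
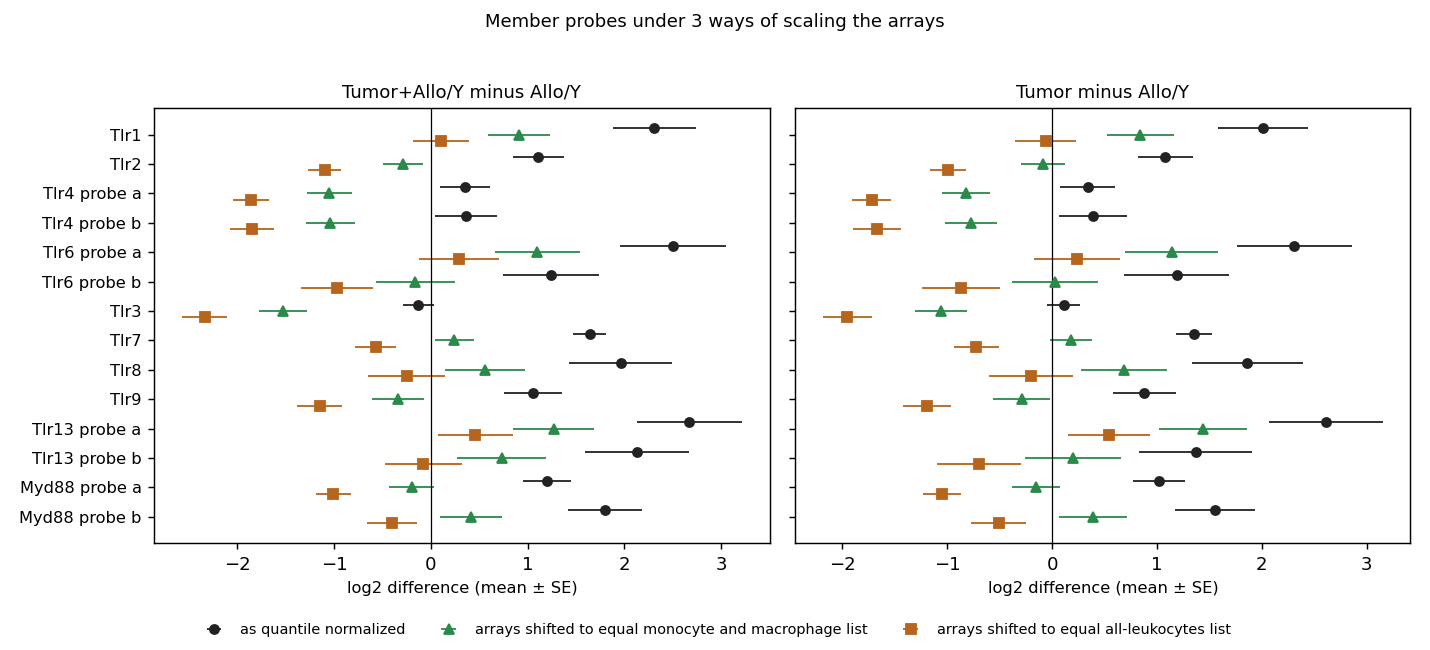
Log2 difference (mean and standard error) of Tumor+Allo/Y and Tumor from Allo/Y for each kept member probe under quantile normalization, after a shift to equal macrophage signal and after a shift to equal leukocyte signal. The 1 week medians are 1.44 and 1.27, then 0.04 and 0.1, then -0.77 and -0.79, beside all-probe medians of 0.02 and 0.03, -1.38 and -1.14, and -2.19 and -2.04, since each shift moves all probes of an array together.

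Other genes of the pathway were counted list by list in the same fit, 1 probe a gene, and after the leukocyte shift most of them, like most probes of the array, lay lower than in Allo/Y. Their counts stand beside 20.8% of all kept probes called higher and 23.7% lower in Tumor+Allo/Y against Allo/Y, 17.8% and 19.1% in Tumor, and 19.9% and 21.8% at day 28. Of the 3 other receptors on the array, Tlr11 and Tlr12, mouse receptors for a profilin of Toxoplasma, were above background on no Allo/Y array. They passed the filter through the other groups, so a higher value than in Allo/Y was built into their selection. Tlr11 was at least 3.09-fold higher in Tumor+Allo/Y (adjusted p = 0.00617) and Tlr12 at least 1.92-fold (adjusted p = 0.00217). Tlr5, the receptor for flagellin, read 6.75, 6.25 and 6.98 at day 28, 7.79, 7.55 and 7.36 in Tumor+Allo/Y, 7.84, 7.12 and 8.04 in Tumor, and 7.86, 8.07 and 8.17 in Allo/Y. It was lower at day 28 than in Allo/Y (-1.37 ± 0.25, adjusted p = 0.0018) and was not called in Tumor+Allo/Y (-0.47, adjusted p = 0.157) or Tumor (-0.37, adjusted p = 0.279).

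Among 11 coreceptor and trafficking genes, Tumor+Allo/Y had 6 called higher than Allo/Y and 0 lower, Tumor 6 and 1, and day 28 6 and 0. Cd180, a receptor relative that regulates Tlr4 signalling, read 10.04, 9.2 and 10.15 in Tumor+Allo/Y and 6.5, 6.93 and 6.65 in Allo/Y, a difference of 3.1 ± 0.38 (adjusted p = 0.000237), and it alone of all listed genes stayed called higher after the leukocyte shift (0.89 ± 0.27, adjusted p = 0.00711). Ly86, its partner protein, differed by 2.35 ± 0.25 (adjusted p = 0.000116). Nrros, a protein of the endoplasmic reticulum that restrains receptor signalling, differed by 2.35 ± 0.39 (adjusted p = 0.0011), and Unc93b1, which carries endosomal receptors out of the endoplasmic reticulum, by 1.87 ± 0.31 (adjusted p = 0.00109). These 4 genes had no overlap with Allo/Y in Tumor and at day 28 as well. Hsp90b1, a chaperone that folds Toll-like receptors, was the gene called lower in Tumor, at 12.08, 12.11 and 12.28 against 12.77, 12.62 and 12.77 in Allo/Y (-0.57 ± 0.13, adjusted p = 0.00879; 0.137 with median scaling), and was not called in Tumor+Allo/Y (-0.28, adjusted p = 0.114).

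Among the 16 kept adaptors and kinases, Tumor+Allo/Y had 9 higher and 4 lower than Allo/Y, Tumor 5 and 2, and day 28 5 and 5. Btk, a kinase of B cells and myeloid cells, differed by 2.62 ± 0.43 in Tumor+Allo/Y against Allo/Y (adjusted p = 0.001), and Irak2, a kinase downstream of Myd88, by 1.9 ± 0.26 (adjusted p = 0.000368). Tirap, the adaptor that brings Myd88 to Tlr2 and Tlr4 at the membrane, ran the other way from Myd88: it read 7.68, 8.05 and 8.05 at day 28, 8.88, 8.5 and 8.92 in Tumor+Allo/Y, 8.75, 8.83 and 8.84 in Tumor, and 9.41, 9.6 and 9.49 in Allo/Y. It was -0.73 ± 0.15 in Tumor+Allo/Y against Allo/Y (adjusted p = 0.00376) and -1.57 at day 28 (adjusted p = 4.23e-05), and -0.84 at day 28 against Tumor+Allo/Y at 1 week (adjusted p = 0.0241), where its other kept probes, at -0.62 to -0.78, were not called. That day 28 call was lost without Tumor+Allo/Y sample 7 (adjusted p = 0.0796) or 9 (0.112) or day 28 sample 10 (0.0992) or 11 (0.065). Tab3, a partner of the kinase Map3k7, was lower in Tumor+Allo/Y (-0.8 ± 0.13, adjusted p = 0.000835). Tab1, another partner of that kinase, was lower at day 28 (-0.62 ± 0.12, adjusted p = 0.00247) and in Tumor+Allo/Y (-0.35, adjusted p = 0.0377), where its other kept probes, at -0.08 and -0.22, were not called. The Tumor+Allo/Y call of Tab1 was lost without any 1 Allo/Y sample (adjusted p between 0.0768 and 0.1), Tumor sample 5 (0.0521) or Tumor+Allo/Y sample 7 (0.119) or 9 (0.0919). Ikbkg, a subunit of the NF-kB kinase complex, was -0.56 by 1 probe (adjusted p = 0.0207) and 0.39 by its other kept probe, so its probes disagreed in sign, and the call was lost without Allo/Y sample 1 (0.0651) or 2 (0.082) or Tumor+Allo/Y sample 7 (0.0869).

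Of 7 transcription factors of the pathway 5 were higher and 0 lower in each of the 3 comparisons with Allo/Y. Irf8, a factor of the macrophage and dendritic lineages, differed by 2.63 ± 0.24 in Tumor+Allo/Y (adjusted p = 5.95e-05) and Nfkb2, an NF-kB subunit, by 1.68 ± 0.18 (adjusted p = 0.000134). Rel, another NF-kB subunit, differed by 1.54 at day 28 (adjusted p = 0.000102) and by 1.27 ± 0.17 in Tumor+Allo/Y (adjusted p = 0.000428). Irf7, which drives type I interferon genes after Tlr7 and Tlr9 signalling, read 9.63, 9.49 and 10.02 at day 28, 11.33, 10.71 and 11.59 in Tumor+Allo/Y, 10.79, 11.28 and 11.26 in Tumor, and 8.32, 8.99 and 8.98 in Allo/Y. It was 2.45 ± 0.27 higher in Tumor+Allo/Y than in Allo/Y (adjusted p = 0.000134) and 1.5 lower at day 28 than at 1 week on the log2 scale (-1.5, adjusted p = 0.0219). The day 28 call was lost without Tumor+Allo/Y sample 7 (adjusted p = 0.0743) or 9 (0.102) or day 28 sample 10 (0.0952) or 11 (0.0863). Of the 9 negative regulators 6 were higher in Tumor+Allo/Y, 5 in Tumor and 4 at day 28, with 0 lower. Tnfaip3, a deubiquitinase that limits NF-kB signalling, differed from Allo/Y by 1.99 at day 28 (adjusted p = 0.000192), by 0.99 in Tumor+Allo/Y (adjusted p = 0.00961) and by 0.98 in Tumor (adjusted p = 0.0133). Cyld, another deubiquitinase, differed by 0.73 ± 0.11 in Tumor+Allo/Y (adjusted p = 0.000712), and Nfkbia, the inhibitor that holds NF-kB in the cytosol, by 0.84 ± 0.2 (adjusted p = 0.00624). Otulin, a deubiquitinase of linear ubiquitin chains, differed by 0.62 at day 28 (adjusted p = 0.0029) and by 0.37 in Tumor+Allo/Y (adjusted p = 0.0322), a call lost without Allo/Y sample 1 (0.126) or 2 (0.0613) or Tumor+Allo/Y sample 7 (0.0916) or 8 (0.0671).

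Of 11 target cytokine genes, Tumor+Allo/Y had 4 higher and 1 lower than Allo/Y, Tumor 3 and 1, and day 28 6 and 1, and at 1 week the shares called either way lie near the 44.5% and 36.9% of all kept probes. Tnf, an inflammatory cytokine, read 10.87, 10.31 and 10.51 in Tumor+Allo/Y and 9.28, 9.5 and 9.36 in Allo/Y (1.18 ± 0.17, adjusted p = 0.000457). Il10, an anti-inflammatory cytokine, was 1.83 ± 0.43 higher in Tumor+Allo/Y (adjusted p = 0.00652), and Cxcl2, a neutrophil chemokine, 1.33 ± 0.25 higher (adjusted p = 0.00187). Ifnb1, interferon beta, was lower, at 6, 6.68 and 6.19 in Tumor+Allo/Y and 7.38, 8.07 and 7.7 in Allo/Y (-1.42 ± 0.34, adjusted p = 0.00772). The genes Il12b, Irak4, Traf3, Chuk and Nfkb1 of the lists had no annotated probe, and Cd36, Sarm1, Ptgs2 and Ifih1 had none kept.

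**Figure D5:**
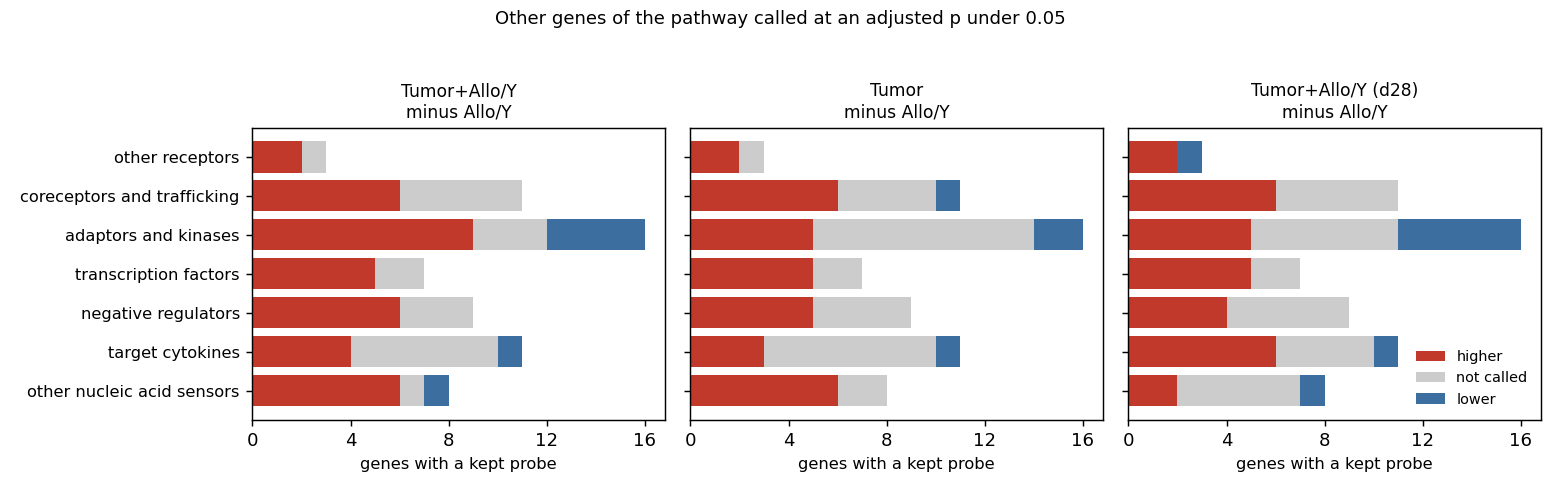
Number of kept genes of each pathway list called higher, lower or not called in each comparison with Allo/Y. Transcription factors show 5 higher of 7 in each comparison, and adaptors and kinases show 9 higher and 4 lower of 16 in Tumor+Allo/Y, counts that hold without the leukocyte shift, after which most genes lie lower.

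The members varied together to different degrees over the 12 arrays. Pearson's r between kept probes of the same gene was 0.951 for Tlr4, 0.95 for Tlr6, 0.921 for Tlr13 and 0.989 for Myd88. Between members it reached 0.99 for Tlr6 with Tlr13 and 0.98 for Tlr1 with Tlr2, while Tlr3 had -0.18 to 0.62 with the others. These points share the groups and the leukocyte content of each array, so r is a description. Over 11961 genes outside the family, the pattern closest to Tlr6 and to Tlr13 was that of Aldh3b1 (r = 0.997 and 0.993). The closest to Tlr2 was Rassf4 (0.993), to Myd88 Ltb4r1 (0.992), to Tlr1 Ripk3 (0.989), to Tlr8 Marchf1 (0.986), to Tlr9 Ccz1 (0.979), to Tlr4 Ankfy1 (0.969), to Tlr7 Jpt1 and Fgd2 (0.963 each) and to Tlr3 1700037C18Rik (0.938).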

How the data were processed

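RNA of CD45+ cells was hybridised to 12 Illumina mouse BeadChips, 3 in each of 4 groups. Per the file headers, the raw table of the authors holds a signal intensity and a detection p-value of 45281 probes for every array. Normalized intensity, also deposited by the authors, served as an alternative, after each of the 12 columns was matched to its raw counterpart. The submitters' processing notes name GenomeStudio, and its version and settings are not given in the sources used here.

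The software was R 4.3.3 with limma 3.58.1. Its function neqc took negative-control statistics from the detection p-values, corrected the intensity for background, added an offset of 16, quantile normalized and took log2, so the log2 values are computed here from the deposited intensity. Kept probes had a detection p under 0.05 on 3 arrays or more. By the platform annotation 34885 probes have 1 symbol, 18 several and 10378 none, and 0 symbols changed when updated by Entrez ID. A single linear model with group means used all 12 arrays and 23054 probes (residual degrees of freedom 8, prior 2.74), with two-sided tests and Benjamini-Hochberg adjustment within each of 6 comparisons. It was tested on simulated data. An exact test of 3 arrays against 3 cannot reach a p below 0.1, and none was run. The number of arrays limits the precision.

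The members and lists were chosen with earlier results of these data known. Every kept member probe is named, and for each pathway list up to 4 genes with the smallest F test p and each called gene whose direction opposes most of its list. A list's gene is read from its brightest kept probe on average, and marker scores are means of log2 values over such genes. Promoter sequences are from RefSeq on GRCm38.p6. Alternatives to the background correction, offset, normalization, scaling reference, filter, unit, arrays, variance model and covariates were run, and the closing section gives their effect.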

Additional observations from a re-analysis of the deposited data

How the results depend on the processing

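Of the 402 counts of called probes recomputed under other settings, 277 stayed within 1.5 times the reported count. The calls of Tlr1, Tlr7 and Tlr13 probe a against Allo/Y at 1 week kept their direction under every normalization, offset, background correction and filter run, and the effect of the marker shifts is given below. In Tumor+Allo/Y against Allo/Y, 8 of 14 member probes were called lower relative to leukocytes, where 93.4% of all kept probes were, and 3 were called higher and 3 lower relative to macrophages, where 3.04% and 83.4% of all were, and which reference describes the cells was not tested. Between the 1 week transfers with a Tumor component no member was called, and Tumor sample 6 stands apart. Tlr3 and Tlr9 lie near background, and their values carry little precision. No paired analysis was possible because the samples are numbered 1 to 12 and the groups share no replicate numbers. Leaving out samples 6, 7 and 9 together, and the lists under the marker shifts, were alternatives chosen after seeing the data. With median scaling the median over all probes in Tumor+Allo/Y against Allo/Y was 0.11.

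Without background correction, called probes numbered 0 for Tumor+Allo/Y against Tumor, and member probes 3 for day 28 against Allo/Y. With the authors' normalized values, called probes numbered 0 for Tumor+Allo/Y against Tumor, and member probes 3 for day 28 against Allo/Y. With an offset of 50, called probes numbered 0 for Tumor+Allo/Y against Tumor, and member probes 3 for day 28 against Allo/Y. With median scaling, called probes numbered 403 for day 28 against Tumor+Allo/Y. With cyclic loess, called member probes numbered 3 for day 28 against Allo/Y. After the leukocyte shift, called probes numbered 21722 for Tumor+Allo/Y against Allo/Y, 21761 for Tumor against Allo/Y, 0 for Tumor+Allo/Y against Tumor, 70 for day 28 against Tumor+Allo/Y, 21779 for day 28 against Allo/Y, 50 for day 28 against Tumor and 22219 for the F test, and member probes 12 for day 28 against Allo/Y and 1 for day 28 against Tumor. After the macrophage shift, called probes numbered 19918 for Tumor+Allo/Y against Allo/Y, 19140 for Tumor against Allo/Y, 0 for Tumor+Allo/Y against Tumor, 3310 for day 28 against Tumor+Allo/Y, 15815 for day 28 against Allo/Y, 255 for day 28 against Tumor and 20130 for the F test, and member probes 6 for Tumor+Allo/Y against Allo/Y and 5 for the F test. Without a filter on dim probes, called probes numbered 0 for Tumor+Allo/Y against Tumor, and member probes 3 for day 28 against Allo/Y. With 1 probe a gene, called probes numbered 5734 for Tumor+Allo/Y against Allo/Y, 4815 for Tumor against Allo/Y, 0 for Tumor+Allo/Y against Tumor, 245 for day 28 against Tumor+Allo/Y, 5183 for day 28 against Allo/Y, 254 for day 28 against Tumor and 5465 for the F test. With only the groups of a comparison fitted, called probes numbered 0 for Tumor+Allo/Y against Tumor, 39 for day 28 against Tumor+Allo/Y and 16 for day 28 against Tumor, and member probes 11 for day 28 against Allo/Y. With array weights, whose estimation stopped before converging, called probes numbered 15976 for Tumor against Allo/Y, 5816 for Tumor+Allo/Y against Tumor, 3984 for day 28 against Tumor+Allo/Y, 8177 for day 28 against Tumor and 18736 for the F test, and member probes 10 for Tumor+Allo/Y against Tumor, 10 for day 28 against Tumor+Allo/Y, 11 for day 28 against Allo/Y and 6 for day 28 against Tumor. Testing against a fold of 1.5, called probes numbered 2747 for Tumor+Allo/Y against Allo/Y, 1552 for Tumor against Allo/Y, 0 for Tumor+Allo/Y against Tumor, 14 for day 28 against Tumor+Allo/Y, 2683 for day 28 against Allo/Y and 7 for day 28 against Tumor, and member probes 5 for Tumor+Allo/Y against Allo/Y, 2 for Tumor against Allo/Y and 1 for day 28 against Allo/Y. With the epithelium score as a covariate, called probes numbered 4545 for Tumor+Allo/Y against Allo/Y, 2442 for Tumor against Allo/Y, 1009 for day 28 against Tumor+Allo/Y and 2216 for day 28 against Tumor, and member probes 3 for Tumor+Allo/Y against Allo/Y, 1 for Tumor against Allo/Y, 1 for day 28 against Tumor+Allo/Y, 2 for day 28 against Tumor and 6 for the F test. Without Tumor sample 6 and Tumor+Allo/Y sample 8 together, called probes numbered 4017 for Tumor+Allo/Y against Tumor, 5194 for day 28 against Tumor+Allo/Y and 1844 for day 28 against Tumor, and member probes 8 for Tumor+Allo/Y against Tumor, 10 for day 28 against Tumor+Allo/Y, 11 for day 28 against Allo/Y and 1 for day 28 against Tumor. Without Tumor sample 6 and Tumor+Allo/Y samples 7 and 9 together, called probes numbered 6500 for Tumor+Allo/Y against Allo/Y, 127 for Tumor+Allo/Y against Tumor, 378 for day 28 against Tumor+Allo/Y and 1898 for day 28 against Tumor, and member probes 11 for day 28 against Allo/Y and 2 for day 28 against Tumor. Leaving out 1 array at a time, the number of called probes was 6976 to 11905 for Tumor+Allo/Y against Allo/Y, 5247 to 9363 for Tumor against Allo/Y, 0 to 1 for Tumor+Allo/Y against Tumor, 63 to 1529 for day 28 against Tumor+Allo/Y, 7180 to 11286 for day 28 against Allo/Y, 16 to 819 for day 28 against Tumor and 6165 to 11935 for the F test. Leaving out 1 array at a time, the number of called member probes was 8 to 11 for Tumor+Allo/Y against Allo/Y, 7 to 11 for Tumor against Allo/Y, 0 to 0 for Tumor+Allo/Y against Tumor, 0 to 6 for day 28 against Tumor+Allo/Y, 2 to 10 for day 28 against Allo/Y, 0 to 1 for day 28 against Tumor and 4 to 13 for the F test. The cause of these shifts was not tested, except that 1 probe a gene tests fewer features. A sign change was counted where the difference was called in either setting. After the leukocyte shift the log2 differences that changed sign were as follows. In Tumor against Allo/Y Tlr1 -0.06, Tlr2 -0.99, Tlr3 -1.95, Tlr4 -1.72 and -1.67, Tlr6 probe b -0.87, Tlr7 -0.72, Tlr8 -0.2, Tlr9 -1.19 and Myd88 -1.05 and -0.51. In day 28 against Allo/Y Tlr1 -0.29, Tlr2 -1.38, Tlr6 -1.03 and -1.79, Tlr7 -1.17, Tlr8 -0.98, Tlr9 -1.9, Tlr13 probe b -1.53 and Myd88 -1.62 and -1.13. In Tumor+Allo/Y against Allo/Y Tlr2 -1.1, Tlr4 -1.86 and -1.85, Tlr6 probe b -0.97, Tlr7 -0.57, Tlr8 -0.25, Tlr9 -1.15, Tlr13 probe b -0.08 and Myd88 -1.01 and -0.4. After the macrophage shift these changed sign. In Tumor+Allo/Y against Allo/Y Tlr2 -0.29, Tlr4 -1.05 and -1.04, Tlr9 -0.34 and Myd88 probe a -0.2. In Tumor against Allo/Y Tlr2 -0.09, Tlr3 -1.06, Tlr4 -0.82 and -0.77, Tlr9 -0.29 and Myd88 probe a -0.15. In day 28 against Allo/Y Tlr2 -0.05. With the epithelium score as a covariate these changed sign. In day 28 against Tumor Tlr1 0.64. In day 28 against Allo/Y Tlr6 probe b -0.54. In Tumor against Allo/Y Tlr8 0 and Tlr9 -0.02.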

Other observations

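Cytosolic sensors of nucleic acids, which act beside the endosomal receptors, were counted in the same fit. Of 8 kept genes, Tumor+Allo/Y had 6 called higher and 1 lower than Allo/Y, Tumor 6 and 0, and day 28 2 and 1, beside 20.8% and 23.7%, 17.8% and 19.1%, and 19.9% and 21.8% of all kept probes, with medians of 1.52, 1.37 and 0.74 that turned to -0.69, -0.7 and -1.47 after the arrays were scaled to equal leukocyte signal, a shift that moved the medians of all probes to -2.19, -2.04 and -2.19. Aim2, a sensor of cytosolic DNA, read 7.6, 7.11 and 7.27 at day 28, 7.9, 7.5 and 7.47 in Tumor+Allo/Y, 7.18, 7.03 and 7.33 in Tumor, and 5.54, 5.89 and 5.45 in Allo/Y. It was 2 ± 0.18 higher in Tumor+Allo/Y than in Allo/Y (adjusted p = 6.28e-05) and 1.7 higher at day 28 (adjusted p = 8.04e-05). Ifi204, an interferon-inducible DNA sensor, was above background on no Allo/Y array and passed the filter through the other groups. A higher value than in Allo/Y was thus built into its selection, and the counts and medians above include it. Ifi204 was at least 5.4-fold higher in Tumor+Allo/Y (adjusted p = 0.00322). Mavs, the adaptor of the cytosolic RNA sensors, was lower than in Allo/Y in Tumor+Allo/Y (-0.52 ± 0.14, adjusted p = 0.0105) and at day 28 (-0.62, adjusted p = 0.00442).

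Dhx58, a regulator of the RNA sensors, read 9.7, 9.68 and 9.99 at day 28, 11.23, 10.49 and 11.52 in Tumor+Allo/Y, 10.49, 10.93 and 11.49 in Tumor, and 8.51, 8.97 and 9.03 in Allo/Y. Its difference from Allo/Y was 2.24 ± 0.3 in Tumor+Allo/Y (adjusted p = 0.000355) and 2.13 in Tumor (adjusted p = 0.000674). At day 28 it was 1.29 lower than at 1 week on the log2 scale (-1.29, adjusted p = 0.0498), with 2 of its 3 other kept probes also called, and that call was lost without any 1 of Allo/Y samples 1, 2 and 3, Tumor sample 5, Tumor+Allo/Y samples 7 and 9 or the day 28 samples (adjusted p between 0.0585 and 0.188). Ddx58, a sensor of viral RNA, was 0.9 ± 0.17 higher in Tumor+Allo/Y than in Allo/Y (adjusted p = 0.0019) and 0.94 higher in Tumor (adjusted p = 0.00221), and differed by 0.4 at day 28 (adjusted p = 0.0738).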
